A study of Mus musculus with 2 samples.

Results

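The edited gene Sox2 and 9 other genes of the Sox family were examined in mouse E14 embryonic stem cells (ESCs) and in their derivative E14-Sox2 TA/WT. The Sox genes of the endoderm were left out of the set, as were some others, such as Sox10. The 10 genes were Sox2, Sox1, Sox3, Sox21, Sox15, Sox4, Sox11, Sox12, Sox13 and Sox9, taken by symbol from a gene table of 24532 genes, and all 10 were found there once. E14 is an established ESC line, and its library served as the wild type. E14-Sox2 TA/WT cells are an E14 clone grown from a single cell after CRISPR/Cas9 editing, called Sox2 TA/WT cells from here on, in which 1 allele of Sox2 carries the change T258A (threonine to alanine) and the other is wild type. Per the study's methods, both lines were grown with serum and leukemia inhibitory factor, but the clone was also kept in 2i, a pair of Mek and Gsk3 inhibitors, until some passages before use. Genotype, clonal origin and culture history therefore cannot be told apart. There was 1 library per genotype, whose read counts totalled 60263536 (E14) and 44609228 (Sox2 TA/WT). Without replicates, no p-value could be had for any difference, and each 95% interval covers counting error only.

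Sox proteins are transcription factors that bind the minor groove of DNA through a high-mobility group (HMG) box and bend it. They act with partner factors, such as POU-domain proteins, that help to decide which genes they control. Subgroups are named by letter: SoxB1 (Sox1, Sox2 and Sox3) keeps cells in a pluripotent or neural progenitor state, SoxB2 (Sox21) counteracts SoxB1 in neural cells, SoxC (Sox4, Sox11 and Sox12) acts in neural and mesenchymal progenitors, SoxD (Sox13) lacks a transactivation domain of its own, SoxE (Sox9) directs cartilage and testis formation, and Sox15 alone makes up SoxG. Sox2 with Oct4 is at the core of the ESC gene network. Threonine 258 of Sox2, which can carry the sugar O-GlcNAc, lies outside the HMG box in the transactivation domain.

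The edited codon is shown first, because the change T258A was designed into it. Codon 258 of Sox2 lies at chr3:34651187-34651189 (GRCm38, plus strand), inside the coding sequence of the single exon. The reference sequence of chr3:34651163-34651213 is given 5′ to 3′ from the GENCODE transcript, with the threonine codon in capitals.
Sox2 codon 258: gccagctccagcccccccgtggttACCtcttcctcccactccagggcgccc
The donor DNA in the study's methods also differs from this window at a further base, with AGA in place of agg near the 3′ end. The gene table holds no read sequence, so neither site could be read in either library.

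The coding sequence of the HMG box is shown next, because it is what the family shares. The stretch of 237 bases (79 codons) of Sox2 that was most alike in the other genes, read in frame without gaps, covered codons 41 to 119. Its bases were 89.5% identical in Sox1, 87.8% in Sox3 and 87.8% in Sox21. Identity was 73.0% in Sox15, 70.9% in Sox9, 68.8% in Sox4, 67.9% in Sox11, 67.5% in Sox12 and 62.0% in Sox13. The most alike 60 bases are printed 5′ to 3′ for Sox2 and the 5 genes that differed more than 2-fold, with bases that differ from Sox2 in capitals.
Sox2: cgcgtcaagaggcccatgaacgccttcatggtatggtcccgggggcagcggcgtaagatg
Sox1: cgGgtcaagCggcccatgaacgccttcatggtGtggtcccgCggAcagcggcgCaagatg
Sox3: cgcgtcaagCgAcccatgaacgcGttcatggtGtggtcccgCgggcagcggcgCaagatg
Sox15: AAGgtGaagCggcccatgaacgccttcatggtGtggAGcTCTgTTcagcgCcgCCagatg
Sox4: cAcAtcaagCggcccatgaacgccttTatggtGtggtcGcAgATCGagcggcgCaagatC
Sox11: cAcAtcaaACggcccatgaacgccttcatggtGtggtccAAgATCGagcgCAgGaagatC
Sox1 and Sox3 differed from Sox2 at 6 bases of this segment, Sox4 at 13, Sox11 at 15 and Sox15 at 16. The longest identical run between any 2 of the 10 transcripts, over 45 pairs, was 48 bases (Sox4 and Sox11), and the median was 22 bases. How reads that fit several genes were counted is not given in the sources used here.

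Of the 10 Sox genes, Sox11, Sox1, Sox3 and Sox4 were more than 2-fold higher in Sox2 TA/WT cells and Sox15 was more than 2-fold lower. Sox2 itself was 1.36-fold lower, Sox12 and Sox13 were slightly higher, and Sox21 and Sox9 were under a TPM of 1 in both libraries. Levels are given as TPM, a measure of transcript abundance scaled to transcript length and to the library.

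**Figure D1:**
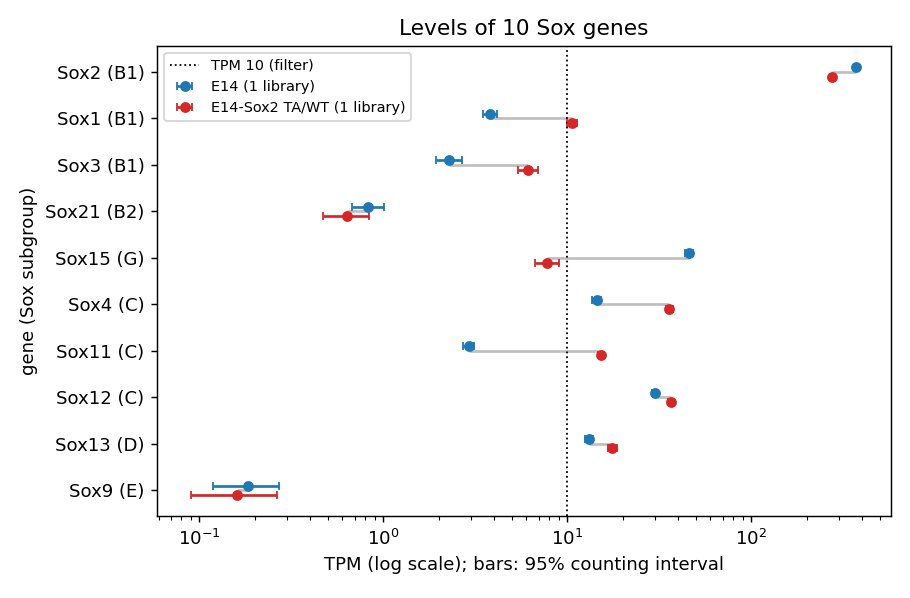
TPM (log axis) of the 10 Sox genes in the E14 library (blue) and the Sox2 TA/WT library (red), with 95% counting intervals as bars and the TPM filter of 10 as a dotted line. Sox15 goes from 46.1 to 7.79 and Sox11 from 2.91 to 15.3, while the intervals of Sox21 and of Sox9 overlap between the libraries.

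The SoxB1 genes are given first. Sox2 (Entrez gene 20674) had 28936 reads in E14 and 14270 in Sox2 TA/WT cells, or a TPM of 372.5 and 274.2. The log2 ratio of TPM (Sox2 TA/WT over E14) was -0.44, with an interval of -0.47 to -0.41. The Sox2 level was thus lower by less than 2-fold, and the counting intervals of the libraries did not overlap. Among genes that reached a TPM of 10 in either library, 14.6% had a lower ratio than Sox2.

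Sox1, a factor of the neural plate, had 484 and 908 reads, or a TPM of 3.80 (3.47 to 4.16) in E14 and 10.7 (9.97 to 11.4) in Sox2 TA/WT cells. It was 2.80-fold higher (2.51 to 3.14), with a log2 ratio of 1.49. Sox3, which is also active in the epiblast and the neural plate, had 149 and 268 reads, or a TPM of 2.28 and 6.14. It was 2.69-fold higher, with a log2 ratio of 1.43 (1.13 to 1.73). The intervals of Sox1 and Sox3 lay wholly above 2-fold, so both genes moved opposite to Sox2 within the same subgroup. Because they were low, their summed TPM of 6.08 in E14 and 16.8 in Sox2 TA/WT cells did not offset Sox2, and Sox2 made up 98.4% of SoxB1 TPM in E14 and 94.2% in Sox2 TA/WT cells.

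The SoxC genes were higher to unequal degrees. Sox11, a gene of early neural progenitors, had 774 and 2735 reads, or a TPM of 2.91 and 15.3. At 5.27-fold (4.87 to 5.72) it had the highest ratio of the 10 genes, with a log2 ratio of 2.40. Of the genes that reached a TPM of 10 in either library, 0.286% had a higher ratio. Sox4, which is broadly expressed in progenitors, had 1344 and 2238 reads, or a TPM of 14.4 and 35.9, and was 2.49-fold higher (2.32 to 2.66). Sox12 had 4179 and 3413 reads, or a TPM of 29.9 and 36.5, which gave a log2 ratio of 0.29 (0.22 to 0.35). The counting intervals of each SoxC gene were apart between the libraries, but Sox12 stayed well within 2-fold. Summed over the subgroup, TPM was 47.3 in E14 and 87.7 in Sox2 TA/WT cells (1.86-fold).

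Sox15, the SoxG gene, is expressed in mouse ESCs and can pair with Oct4. It had 1652 reads in E14 and 188 in Sox2 TA/WT cells, or a TPM of 46.1 (43.9 to 48.3) and 7.79 (6.72 to 8.99). It was 5.91-fold lower (5.08 to 6.91), with a log2 ratio of -2.56, and 0.418% of the genes past the TPM filter had a lower ratio. Sox15 was the most abundant Sox gene after Sox2 in E14, whereas in Sox2 TA/WT cells it came after Sox1.

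The remaining genes differed by less than 2-fold. Sox13, the SoxD gene, had 1459 and 1309 reads, or a TPM of 13.1 and 17.6, with a log2 ratio of 0.42 (0.31 to 0.53). Sox21 had 100 and 51 reads, or a TPM of 0.830 and 0.633, and the interval of its log2 ratio ran from -0.91 to 0.11. Sox9 had 25 and 15 reads, or a TPM of 0.184 and 0.160, with an interval from -1.23 to 0.78. Both intervals included no change on the TPM scale. The Sox9 interval also holds a change of more than 2-fold downward.

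The study's methods kept genes that reached a TPM of 10 in either library and called those that differed more than 2-fold, and by this rule 7 of the 10 Sox genes passed the filter. Of these 7, 3 were called higher (Sox1, Sox4 and Sox11), where 4.17% of the 9094 genes past the filter were called higher. Sox15 was called lower, where 4.07% of these genes were. Sox2, Sox12 and Sox13 passed the filter without a call, and Sox3, Sox21 and Sox9 were under it. Sox1 and Sox11 reached the filter only through Sox2 TA/WT cells, so that they had to be higher there to be counted, and Sox15 reached it only through E14. With the mean TPM of the libraries at 10 or more, a filter added after the data were seen, 5 Sox genes remained, with Sox4 higher and Sox15 lower, against 3.74% and 3.09% of 8665 genes. With a TPM of 1 or more in either library, 8 Sox genes passed, of which 4 were higher and 1 was lower, against 6.45% and 9.95% of 13729 genes. Over all 10 genes, 6 had a higher and 4 a lower TPM in Sox2 TA/WT cells, with a median log2 ratio of 0.35. Of the 9094 genes, 57.3% were higher, a share close to 6 of 10, and their median was 0.08. The median size of the log2 ratio, regardless of direction, was 0.88 for the 10 genes and 0.32 for the 9094. These sets are not alike, since 3 of the 10 Sox genes were under the filter that all 9094 genes passed. Ratios scatter more at low TPM.

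**Figure D2:**
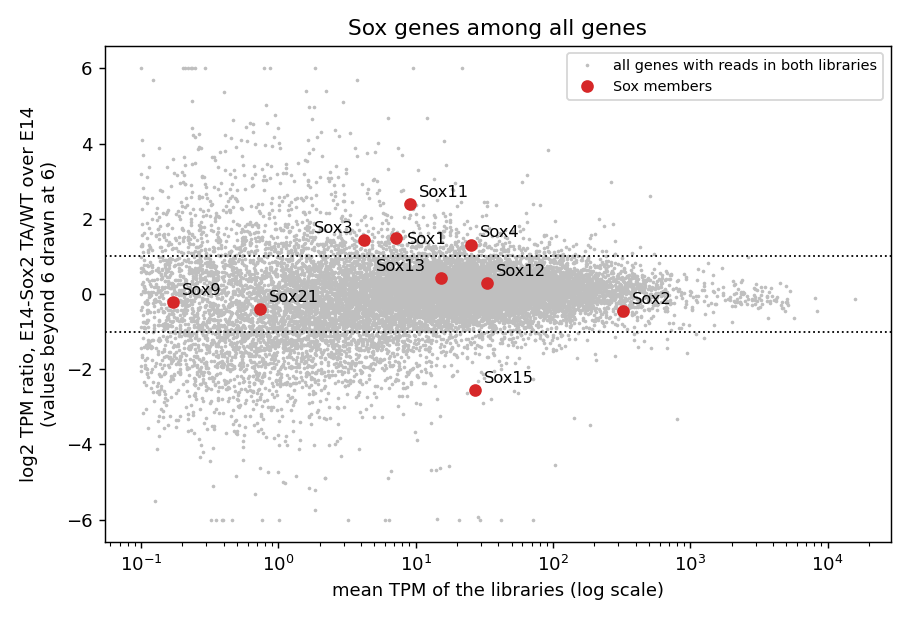
Log2 TPM ratio of every gene with reads in both libraries and a mean TPM of at least 0.1, against its mean TPM (log axis), with the 10 Sox genes in red and 2-fold as dotted lines. Sox11, Sox1, Sox3 and Sox4 lie above the upper line and Sox15 below the lower one, and the scatter of all genes is wider at low TPM.

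The ratio depends somewhat on the scale. For the Sox genes, the log2 ratio of read counts scaled to the library total was lower than that of TPM by 0.10 to 0.15, and the median of the 9094 genes went from 0.08 to -0.06 with it. On the read count scale Sox2 had a log2 ratio of -0.59 (-0.61 to -0.56), Sox15 of -2.70 and Sox11 of 2.26. Sox1 was at 1.34, Sox3 at 1.28 (0.99 to 1.58) and Sox4 at 1.17 (1.07 to 1.27), so the interval of Sox3 reached just under 2-fold. Sox21 was at -0.54 (-1.05 to -0.037), an interval that did not include 0 here, unlike that of the TPM ratio. With a trend of the ratio on GC content and transcript length removed, the differences of the most distant genes shrank, to -2.15 for Sox15 and 1.93 for Sox11, and Sox2 came to -0.34. No Sox gene changed direction or crossed 2-fold on these scales.

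**Figure D3:**
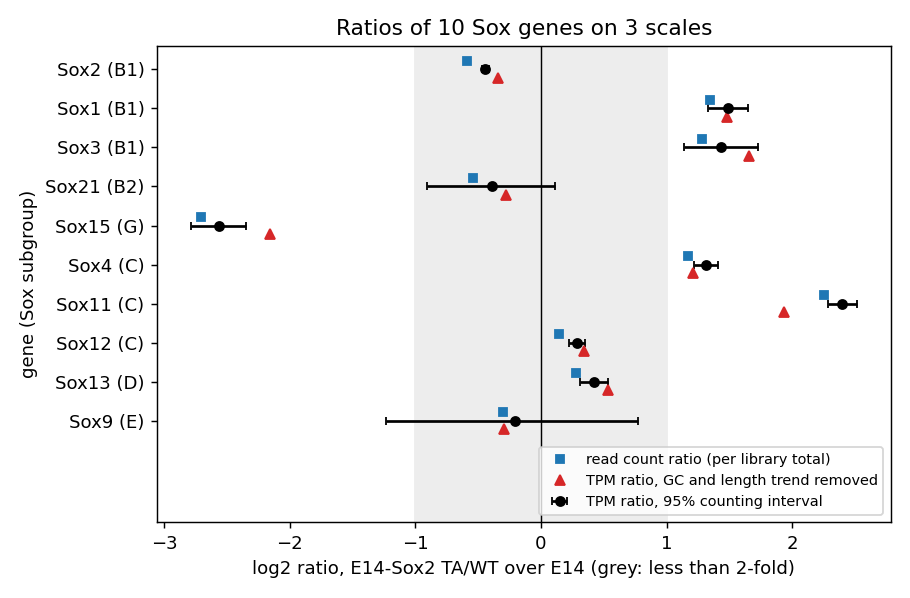
Log2 ratio (Sox2 TA/WT over E14) of the 10 Sox genes from TPM with its 95% counting interval (black), from read counts per library total (blue squares) and from TPM after removal of the GC and length trend (red triangles), with changes of less than 2-fold in grey. Sox1, Sox3, Sox4, Sox11 and Sox15 lie outside the grey band on all 3 scales.

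The order of the levels differed between the libraries. In E14 the order by TPM was Sox2, Sox15, Sox12, Sox4, Sox13, Sox1, Sox11, Sox3, Sox21 and Sox9, and only the intervals of Sox4 and Sox13 overlapped among neighbours. In Sox2 TA/WT cells it was Sox2, Sox12, Sox4, Sox13, Sox11, Sox1, Sox15, Sox3, Sox21 and Sox9, where the neighbours Sox12 and Sox4 and the neighbours Sox15 and Sox3 overlapped. Summed over the 10 genes, TPM was 486.1 in E14 and 404.8 in Sox2 TA/WT cells, and Sox2 made up 76.6% and 67.7% of it. Without Sox2 the sum was 113.5 and 130.6, so the other genes together differed less than most of them did singly. The share of Sox15 went from 9.48% to 1.93% and that of Sox4 from 2.97% to 8.87%. In bulk RNA, fewer cells that express a gene and less RNA per cell cannot be told apart.

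Levels between genes rest on the transcript lengths behind the deposited TPM. The read count and FPKM of Sox4 imply a length of 3000.3 bases, whereas its GENCODE transcript has 4795 bases. For Sox15 the values are 1156 and 861 bases, and for Sox2 2505 and 2057 bases. The order of Sox4 and Sox13 in E14 turned around with the GENCODE lengths, at 280.3 and 395.1 reads per kilobase, and so did that of Sox1 and Sox15 in Sox2 TA/WT cells (187.9 and 218.4). A length that is the same in both libraries cancels out of the ratio of 1 gene. This does not cover the trend of the ratio on GC content and transcript length given above.

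The surroundings of each Sox gene were examined next. The 10 genes lie on 9 chromosomes of GRCm38, among them Sox2 at 34649995 to 34652461 of chromosome 3, Sox1 at 12395519 to 12399555 of chromosome 8, Sox3 at 60891366 to 60893430 of chromosome X, Sox15 at 69655037 to 69656727 of chromosome 11, Sox4 at 28948919 to 28953699 of chromosome 13 and Sox11 at 27334268 to 27342718 of chromosome 12 (RefSeq). Sox2 lies inside an intron of the noncoding gene Sox2ot on the same strand, and they share 0 exonic bases in GENCODE. Sox2ot had 107 reads in E14 and 498 in Sox2 TA/WT cells, or a TPM of 1.14 and 7.94, and was 6.96-fold higher (log2 ratio 2.80, 2.49 to 3.11). Sox2ot was thus higher in the library in which Sox2 was lower. The 10 nearest genes to Sox2 with a mean TPM of 1 or more, Sox2ot included, had a median log2 ratio of 0.25.

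Sox1 lies on chromosome 8, where 723 genes other than Sox1 with a mean TPM of 1 or more had a median log2 ratio of 0.26, which is 0.22 above that of all such genes. All 10 neighbours of Sox1 were higher, where 53.2% of the 13269 genes with a mean TPM of 1 or more were. The neighbours ranged from 0.07 to 0.87 with a median of 0.48, but none reached 2-fold. The part of this chromosome-wide level in the Sox1 ratio of 1.49 was not tested. The chromosome medians for the other Sox genes ran from 0.02 on chromosome 11 (Sox15 and Sox9) to 0.15 on chromosome X (Sox3).

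The neighbours of Sox15 had a median log2 ratio of -0.25 and moved in both directions. Cd68, a macrophage gene 9.31 kb away between gene midpoints, had 1892 and 294 reads, or a TPM of 52.1 and 11.2, with a log2 ratio of -2.22. Atp1b2, which encodes a sodium pump subunit, was also lower, at -1.20. Mpdu1, on the opposite strand, shares 31 exonic bases with Sox15 in GENCODE and had a log2 ratio of -0.19, with 3432 and 2020 reads. The handling of strand is not given in the sources used here, so reads over these 31 bases are uncertain. The same holds for Sox4, whose exon shares 2616 of its 4795 bases with the opposite-strand noncoding gene Gm26735, for which no row of the gene table was matched, and for Sox21, which shares 713 of 3799 bases with Gm4675. Gm4675 had 5 reads in E14 and 6 in Sox2 TA/WT cells. Among the 10 neighbours of Sox11, Id2, an inhibitor of helix-loop-helix factors, was higher (1.35), and the median was 0.02. Id2 is not close to Sox11, since its midpoint lies at -2244 kb (minus for lower coordinates). Near Sox12, which barely differed, 3 of 10 neighbours were more than 2-fold lower, among them Trib3 at -2.26, where 8.44% of the 13269 genes with a mean TPM of 1 or more were. For the neighbours of Sox4 the median was 0.21, with E2f3, 995 kb away, at 1.29. For those of Sox3, which lay up to 7891 kb away, it was -0.03, with values from -2.79 to 1.15.

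**Figure D4:**
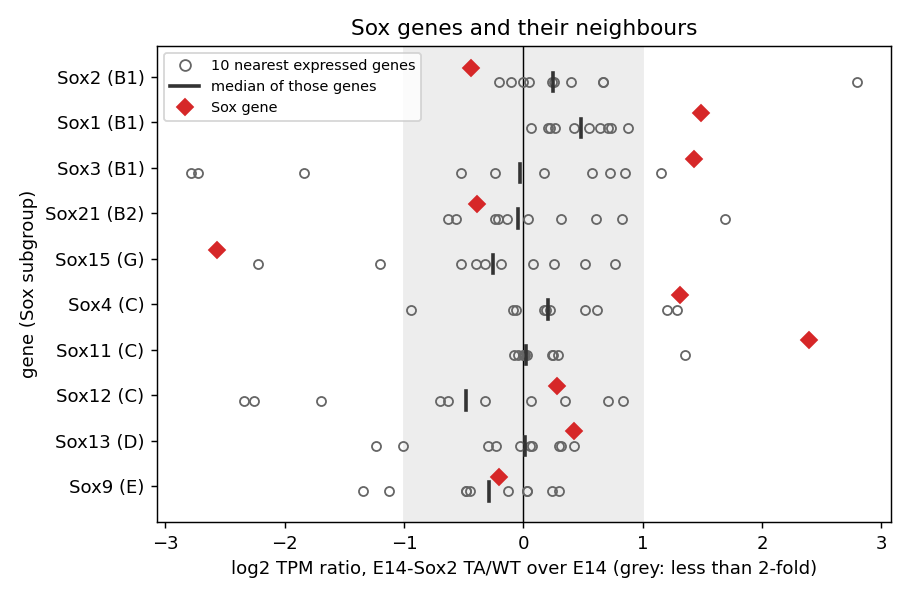
Log2 TPM ratio (Sox2 TA/WT over E14) of each Sox gene (red diamond) and of its 10 nearest genes with a mean TPM of 1 or more (open circles, with their median as a bar), with changes of less than 2-fold in grey. The Sox1 neighbours all lie between 0.07 and 0.87, while Sox1, Sox3, Sox4 and Sox11 lie above and Sox2 and Sox15 below all of their own neighbours.

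The RefSeq promoter table (GRCm38.p6) had an entry for 8 of the 10 Sox genes, without Sox3 and Sox9. The 250 bases before the start of Sox15 held 5 CpG pairs, against 6 in the median of 32851 promoters. The other entries held more, with 11 in Sox4, 17 in Sox11, 17 in Sox21, 27 in Sox2, 29 in Sox1, 31 in Sox13 and 35 in Sox12. These windows depend on the RefSeq starts, which differ from the GENCODE starts for some genes. Sox15 starts at 69655037 in RefSeq and 69655314 in GENCODE, and Sox1 at 12395519 and 12395295. The Sox motifs ACAAAG and ACAATG and the octamer ATGCAAAT were searched on both strands. ACAAAG was found in the Sox2 window only, and in 16.5% of all promoters. ATGCAAAT was found in the Sox12 window only, and in 1.60% of all promoters. ACAATG was found in none of the 8, and in 10.7% of all promoters. The windows of Sox15 and Sox11, the genes with the lowest and the highest ratio, are printed 5′ to 3′ in lower case. The first covers chr11:69654787-69655036 on the plus strand and the second chr12:27342719-27342968 on the minus strand.
Sox15: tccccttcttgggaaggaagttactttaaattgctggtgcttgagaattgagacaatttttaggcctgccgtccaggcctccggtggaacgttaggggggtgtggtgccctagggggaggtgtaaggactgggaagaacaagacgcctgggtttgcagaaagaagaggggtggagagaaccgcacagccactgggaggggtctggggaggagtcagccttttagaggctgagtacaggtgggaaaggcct
Sox11: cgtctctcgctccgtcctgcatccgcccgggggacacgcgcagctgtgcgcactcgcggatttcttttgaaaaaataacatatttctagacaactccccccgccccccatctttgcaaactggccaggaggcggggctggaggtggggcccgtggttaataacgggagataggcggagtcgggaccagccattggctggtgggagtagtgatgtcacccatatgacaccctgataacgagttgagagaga
No base is in capitals, since none of the 3 motifs occurred in either window, which says nothing about binding of a factor there.

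Factors that work with Sox2 were listed from general knowledge. Of the 10 partner factors, 8 reached a mean TPM of 1, with 6 higher and 2 lower in Sox2 TA/WT cells and a median log2 ratio of 0.35, against 0.04 over the 13269 genes at that level, of which 53.2% were higher. Among the higher factors, Pax6 reached this level only through Sox2 TA/WT cells. The count of higher factors was 4 when read counts were scaled to the library total. The highest ratio was that of Pou2f1, the broadly expressed octamer factor Oct1, with 1186 and 6626 reads, or a TPM of 2.90 and 24.3 (log2 ratio 3.07). Pou3f1, or Oct6, which is active in the epiblast and in neural cells, went from a TPM of 4.34 to 24.4 (2.49). Pou5f1, which encodes Oct4, had a TPM of 1725 and 1759, and Nanog, the lowest, had 526.9 and 251.3 (-1.07). The log2 ratio of Pou5f1 was near 0, and its sign changed with the scaling of the libraries.

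Genes in which joint Oct-Sox elements have been described gave a mixed picture. All 9 were past the filter, and 6 had a higher and 3 a lower TPM, with a median log2 ratio of 0.07. These values were near those of the 9094 genes past the filter, of which 57.3% were higher, with a median of 0.08. Sox2 itself is on this list as 1 of the 3 lower genes, and Nanog, Pou5f1 and Utf1 are also on other lists used here. With read counts scaled to the library total, 4 were higher and the median was -0.07. Lefty1, an inhibitor of Nodal, was highest, with a TPM of 79.2 and 181.9 (1.20). Nanog was lowest, and Fgf4, an ESC growth factor gene, had a TPM of 162.6 and 108.7 (-0.58). Utf1 (0.24) and Fbxo15 (0.07) differed little. Only Lefty1 (higher) and Nanog (lower) passed 2-fold, where 4.17% of the 9094 genes were called higher and 4.07% lower.

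The Sox genes outside the 10 were low in both libraries. Of the 9 listed, 4 reached a mean TPM of 1, with 1 higher and 3 lower. Of the 13269 genes at that level, 53.2% were higher. Sox17 and Sox7, both lower, reached it only through E14. Sox17, an endoderm gene, had a TPM of 3.32 and 0.778 (log2 ratio -2.09), and Sox18 had 1.31 and 2.13 (0.70). Sox10, a neural crest factor of the same subgroup as Sox9, had a TPM of 3.30 and 1.74 (-0.92). None of the 9 reached a TPM of 10 in either library. Of 7 cartilage genes that Sox9 and the SoxD factors act on in chondrocytes, 4 reached a mean TPM of 1 and all 4 were lower, from Matn1 (5.76 and 1.41, log2 ratio -2.03) to Col2a1 (5.99 and 3.11, -0.95). Acan (3.08 and 0.971) and Comp (1.64 and 0.832) reached this level only through E14, so they had to be lower to be counted. Of the 13269 genes at this level, 53.2% were higher. Under it, Col11a2 had a TPM of 0.649 and 0.802, Hapln1 had 0 and 6 reads, and Col9a1 had 18 and 0 reads. None of the cartilage genes passed the TPM filter.

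Markers of cell types were compared beside the Sox genes. The 7 ESC markers were all past the filter, with a summed TPM of 11737 in E14 and 8798 in Sox2 TA/WT cells, so both libraries carried the labelled cell type. Most of this sum was Dppa5a, a pluripotency gene, with a TPM of 6877 and 4429. By TPM 3 of the 7 markers were higher (Pou5f1, Esrrb and Utf1) and 4 lower, where 57.3% of the 9094 genes past the filter were higher. With read counts scaled to the library total 1 of the 7 was higher. Of 8 neural progenitor markers, Nes had a TPM of 6.67 and 36.2 (log2 ratio 2.44). Pax6, with 0.396 and 2.33, reached a mean TPM of 1 only through Sox2 TA/WT cells. The others were under a TPM of 1 in both libraries, among them Hes5 with 15 and 7 reads, Zbtb16 with 13 and 11, Olig2 with 7 and 0, Fabp7 with 3 and 6 and Neurog2 with 2 and 4. The summed TPM of the 8 was 8.13 and 39.4. Most of it was Nes, and the part of other cell types in the ratios of Sox1, Sox3 and Sox11 was not tested.

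Of 6 endoderm markers, 5 reached a mean TPM of 1, and all 5 were lower, where 53.2% of the 13269 genes at that level were higher. Sox17 and Sox7 reached this level only through E14, so they had to be lower to be counted. The summed TPM of the 6 was 40.4 in E14 and 15.8 in Sox2 TA/WT cells. Gata6 (-1.88), Gata4 (-1.98), Sox17 and Sox7 (-1.68) were more than 2-fold lower, against 8.44% of the 13269 genes at this level. These endoderm genes moved in the same direction as Sox15, and their part in its ratio was not tested. The 5 trophoblast markers summed to a TPM of 62.8 and 35.2, from Cdx2 (0.474 and 12.2, log2 ratio 4.69) to Tfap2c (50.9 and 16.1, -1.67). The 5 neural crest markers summed to 6.77 and 8.02, from Ets1 (1.58) to Snai2 (-1.17). Cdx2 reached a mean TPM of 1 only through Sox2 TA/WT cells and Snai2 only through E14, so each had to differ that way to be counted. The 6 fibroblast markers summed to 43.1 and 16.6 and did not go one way. Thy1 had a TPM of 40.1 and 11.4. Of the collagen genes, Col3a1 was higher, with 15 and 151 reads (interval of the log2 ratio 3.24 to 4.88), as was Col1a2, with 43 and 109 reads (1.93). Col1a1 had a TPM of 2.66 and 2.95, and Dcn and Lum had 0 reads in both libraries.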

How the data were processed

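Polyadenylated RNA was sequenced from 1 library of each genotype. The submitters' processing notes name bcl2fastq 2.20.0, Trimmomatic, HISAT2 2.1.0 and StringTie 2.1.3b and the builds mm10 and hg19, without roles. The mm10 gene table deposited by the authors holds whole read counts, not normalized. The FPKM values deposited by the authors are scaled per kilobase of transcript and to the number of fragments. The TPM values deposited by the authors sum to 993247 (E14) and 994155 (Sox2 TA/WT). The ratio of TPM was taken without a pseudocount, at a filter of TPM 10 in at least 1 library and a threshold of 2-fold. The 95% intervals are exact: Clopper-Pearson for ratios of read counts, placed on the TPM scale, and Poisson for levels. PCR reads are not independent molecules, so they cover counting error only, and 3 reads, the floor of detection, were 0.0498 and 0.0673 CPM (counts scaled to the library total). Interval and ratio code was tested on simulated data. Scaling by TMM (edgeR 4.0.16) and size factors (DESeq2 1.42.0), other filters, thresholds and pseudocounts, and a GC and length trend (medians in 20 bins each, GENCODE transcripts, 97.7% of genes) were alternatives. Gene positions came from RefSeq for GRCm38.p6. The Sox genes, lists and markers were chosen with earlier results of these data known. The genes named were the 10 Sox genes and, of each list, those with the highest and lowest ratio at a mean TPM of at least 1, with others a sentence needed. Neighbours named were chosen after their values were seen. The value of 1 marker gene is not reported here.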

Additional observations from a re-analysis of the deposited data

How the results depend on the processing

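Without a replicate, no alternative tests the difference between genotypes. No paired analysis was possible because each genotype had 1 library. Over 9 other scales and pseudocounts, each Sox gene kept its direction, and those more than 2-fold apart stayed so. The log2 ratio of Sox2 (-0.44) moved beyond its counting interval to -0.59 with read counts per library total, -0.59 with FPKM, -0.49 with TMM, -0.53 when centred on the median and -0.34 with the GC and length trend removed. Sox15 ranged from -2.71 (FPKM) to -2.15 (trend removed), Sox11 from 1.93 (trend removed) to 2.38 (without the 10 highest genes), and Sox9 from -0.35 to -0.03. The count of 3 Sox genes called higher was 4 with a TPM filter of 1, with a filter of 5 and without a filter. It was 1 with a TPM filter of 20, 1 at 3-fold and 1 with a mean TPM of 10 or more. A stricter filter admits fewer genes, and a 3-fold threshold calls fewer of those admitted. The share over all genes was not computed for the filters of 5 and 20, no filter or 3-fold, so those counts have no background. The count of 1 gene called lower stayed at 1 in all of these settings. The order by level was the same with FPKM, and 4 positions differed with reads per kilobase of GENCODE transcript. Sox9, with the fewest reads (25 and 15), had the widest interval. The interval of Sox21 included no change with TPM but not with read counts per library total.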
